A study of Homo sapiens with 60 samples.

Results

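The genes described here encode 7 chemokines that epithelial cells can release to attract neutrophils and lymphocytes: CXCL1, CXCL2, CXCL3, CXCL8, CCL20, CXCL16 and CX3CL1. They were taken as the rows whose Ensembl identifiers map to these symbols, which gave 7 of the 60675 gene rows in the count table. RNA was sequenced from HT29 cells, an established line from a human colorectal adenocarcinoma, after 24 h with a plant extract or with vehicle, in 60 libraries of 25 groups. Yijin-tang (3 libraries per dose) and Soshiho-tang (2 libraries per dose) are water decoctions of several herbs, given at 20, 100 and 500 µg/mL as the low, medium and high dose. Schisandrae Fructus, Liriopis seu Ophiopogonis Tuber, Zizyphi Semen and Longan Arillus are extracts of single herbs made with 70% ethanol, given at the same 3 doses with 3 libraries each. Polygalae Radix, at 15.2, 76 and 380 µg/mL, and Aucklandiae Radix, at 14.8, 74 and 370 µg/mL, are also labelled as ethanol extracts. They had 1 library per dose, so no test was made for them. The reference was DMSO vehicle alone (3 libraries), given as 0.1% in the sample labels and as 2% in the series description. All groups are cultures of 1 cell line, and the labels do not say whether replicates came from separate cultures, so p-values measure only the spread between these libraries.

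Chemokines are small secreted proteins that steer leukocytes along a gradient by binding receptors on the leukocyte surface. CXCL1, CXCL2, CXCL3 and CXCL8 (interleukin 8) share an ELR motif before their first cysteines and recruit neutrophils, all through CXCR2 and CXCL8 also through CXCR1. CCL20 is the ligand of CCR6 and recruits Th17 cells, B cells and immature dendritic cells to mucosal surfaces. CXCL16, the ligand of CXCR6, and CX3CL1 (fractalkine), the ligand of CX3CR1, are made as membrane proteins that hold lymphocytes and monocytes and can be cut free by the proteases ADAM10 and ADAM17. In gut epithelium the genes of the first 5 are known targets of NF-kB, the transcription factor activated by bacterial products and by cytokines such as TNF and interleukin 1, and their mRNAs are short-lived.

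CXCL8, CXCL1, CXCL3 and CXCL2 lie within 358.788 kb of human chromosome 4, from 73740506 to 74099293 (GENCODE release 29, GRCh38). CCL20 is on chromosome 2, CX3CL1 on chromosome 16 and CXCL16 on chromosome 17. RefSeq promoter sequence (build GRCh38.p14) was at hand for 5 of the 7 genes, those other than CXCL16 and CX3CL1. The 130 bases before the annotated start of each are shown because the 5 genes moved together in the decoction libraries, with matches to the 9-letter NF-kB type motif GGNNTTTCC, on either strand, in capitals. The windows end at the start given by RefSeq, which for the genes other than CXCL1 differs from the GENCODE gene bounds, so that the CCL20 window lies within the GENCODE gene and the CXCL2, CXCL3 and CXCL8 windows overlap theirs. They are chr4:73869263-73869392 on the plus strand for CXCL1, chr4:74099196-74099325 on the minus strand for CXCL2, chr4:74038690-74038819 on the minus strand for CXCL3, chr4:73740439-73740568 on the plus strand for CXCL8 and chr2:227813712-227813841 on the plus strand for CCL20.
CXCL1: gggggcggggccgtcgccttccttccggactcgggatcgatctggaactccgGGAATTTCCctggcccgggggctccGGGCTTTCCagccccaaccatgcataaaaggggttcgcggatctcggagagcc
CXCL2: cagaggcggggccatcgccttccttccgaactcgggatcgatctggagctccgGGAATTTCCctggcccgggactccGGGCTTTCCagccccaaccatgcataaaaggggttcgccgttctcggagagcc
CXCL3: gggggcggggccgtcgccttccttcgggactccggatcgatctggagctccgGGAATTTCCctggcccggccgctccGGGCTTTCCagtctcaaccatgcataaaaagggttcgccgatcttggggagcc
CXCL8: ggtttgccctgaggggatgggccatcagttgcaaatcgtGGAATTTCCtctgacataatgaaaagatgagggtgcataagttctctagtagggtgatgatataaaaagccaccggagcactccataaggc
CCL20: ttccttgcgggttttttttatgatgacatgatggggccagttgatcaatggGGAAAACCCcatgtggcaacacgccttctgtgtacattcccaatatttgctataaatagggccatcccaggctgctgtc

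The windows of CXCL1 and CXCL2 were 92.4% identical in a global alignment, those of CXCL1 and CXCL3 91.5% and those of CXCL2 and CXCL3 87.8%, whereas CXCL8 and CCL20 matched each other and these 3 over 44.9 to 50.3% of the aligned positions. CXCL1, CXCL2 and CXCL3 each held 2 matches, and CXCL8 and CCL20 held 1 each, the CCL20 match being read on the other strand. The motif was found in the same window of 2.98% of the 35116 promoters in the table. The AP-1 motif TGANTCA, which does not overlap it, matched in the 250 bases before and 50 bases after the start in 1 of the 5 genes, CXCL8, at bases -137 to -131 from the start, and in 7.71% of all promoters. These matches describe the letters and do not show that a factor binds there.

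The libraries held 18161717 to 35128954 expected counts, and levels are given as CPM, the count scaled to a common library size after TMM normalization. The 9 epithelial markers, among them EPCAM and KRT8, summed to 8467 to 18449 CPM over the 60 libraries, while the 6 fibroblast markers summed to at most 4.12 CPM and the 5 endothelial markers to at most 9.21 CPM, both in the Aucklandiae Radix high dose library. Of the 12 leukocyte markers, LYZ was high in every library, and the other 11 summed to 31.6 CPM in Soshiho-tang high dose replicate 3, as labelled, against 4.33 to 8.89 CPM in the other 59. The 3 red cell markers summed to 9.66 CPM in that library and at most 0.311 CPM elsewhere. Yijin-tang low dose replicate 2, as labelled, stood apart from its group over many genes, with a sum of 8.48 CPM for the same 11 leukocyte markers. Results that rest on these 2 libraries are given with and without them, and the part of other cells in them was not tested. The library name's first part gives a library set, and vehicle forms a set of its own, so extract against vehicle cannot be told apart from library set. Doses of 1 extract share a set, as do the pairs of extracts compared at equal dose. The decoctions and the single herbs are in different sets, and they also differ in solvent and in the number of herbs.

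In vehicle-treated cells CXCL8 and CXCL16 had the highest levels of the 7, with 3.64 and 3.60 CPM per kilobase of exon, followed by CXCL1 with 1.59, CXCL3 with 0.430, CXCL2 with 0.280, CX3CL1 with 0.0919 and CCL20 with 0.0588 CPM per kilobase. All 7 passed the filter on low counts, a level of 0.401 CPM at the median library in enough libraries. CCL20 did so only through the decoctions, with 14 of 54 libraries at or above that level, 0 of them vehicle, so a difference for this gene was built into its passing.

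In both decoctions the neutrophil chemokines CXCL1, CXCL2, CXCL3 and CXCL8 and the CCR6 ligand CCL20 rose at the high dose, while CXCL16 and CX3CL1 passed the test in neither. Tests against vehicle used edgeR's quasi-likelihood test with Benjamini-Hochberg adjustment over all 16890 genes tested, and a gene was called at an adjusted p under 0.05. Of the 7 genes, 4 rose with Yijin-tang at the low, 5 at the medium and 5 at the high dose, where 8.58, 0.225 and 0.557% of all genes were called higher. With Soshiho-tang 0, 3 and 5 of the 7 rose at the low, medium and high dose, against 0.0414, 0.148 and 4.17% of all genes. Leaving CCL20 out, 3, 4 and 4 of the other 6 rose with Yijin-tang and 0, 2 and 4 with Soshiho-tang. DESeq2 called the same numbers at the medium dose of both and at the Soshiho-tang high dose. It gave no adjusted p for CXCL2, CXCL3 and CCL20 at the Yijin-tang high dose and for CCL20 at the Yijin-tang low dose, so it called 2 and 3 of the 7 there. At the Soshiho-tang low dose 3 of the 7 had an unadjusted p under 0.05 and DESeq2 called 1, CXCL1. The median log2 fold change of the 7 was 1.69 at the Yijin-tang high dose and 1.66 at the Soshiho-tang high dose, where the median over all genes was -0.01 and -0.00035. In bulk RNA a change in the share of expressing cells and a change in RNA per cell cannot be told apart.

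**Figure D1:**
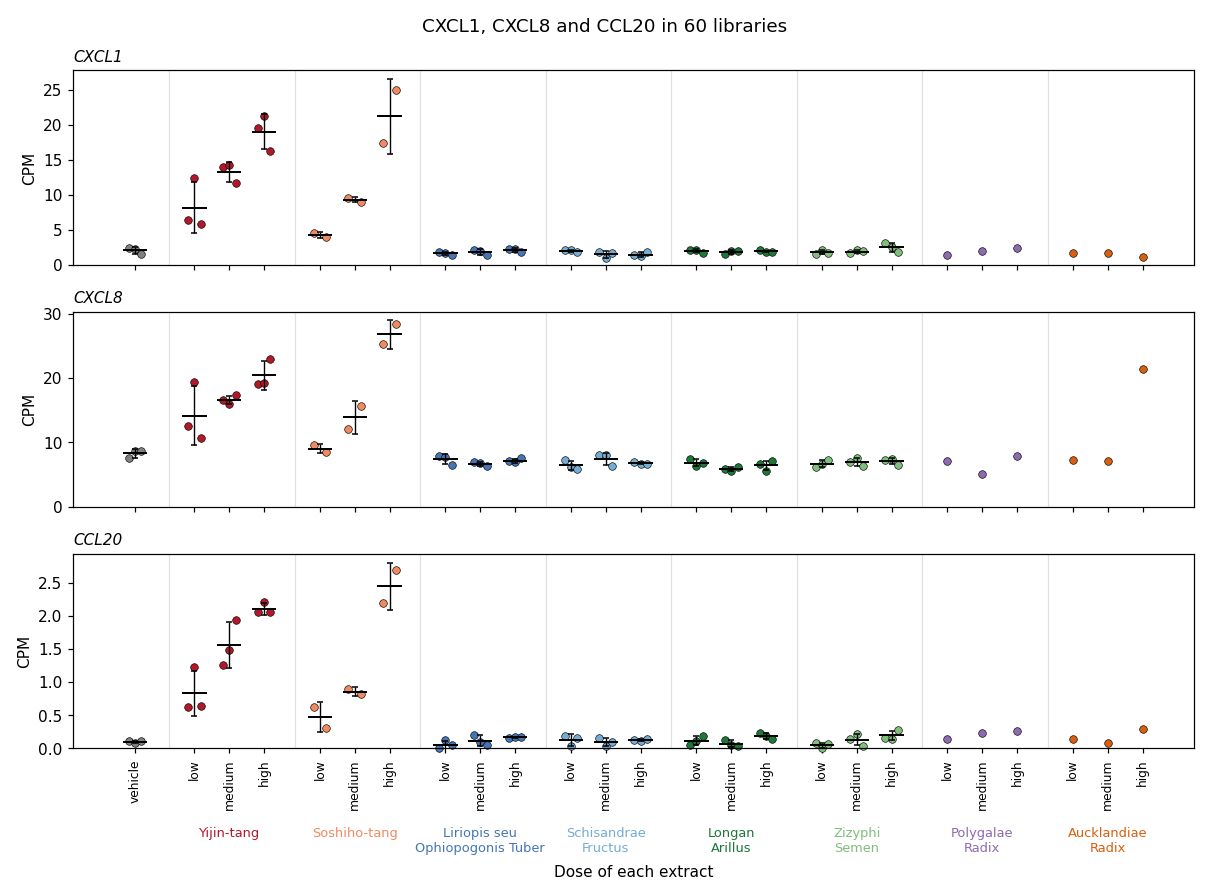
Levels of CXCL1, CXCL8 and CCL20 in CPM (y axes, each from 0) in every library, by extract and dose (x axis), with vehicle at the left; points are libraries, horizontal lines are group means and error bars SD where a group has more than 1 library. CXCL1 lies at or below 3.16 CPM in the 45 libraries outside the decoctions and between 3.95 and 25.0 CPM in the 15 decoction libraries, and Aucklandiae Radix high dose stands at 21.4 CPM for CXCL8.

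CXCL1 (ENSG00000163739, chromosome 4, 73869393 to 73871242, plus strand), a neutrophil attractant, had 2.38, 2.32 and 1.49 CPM in the 3 vehicle libraries. In Yijin-tang it had 6.34, 12.3 and 5.77 CPM at the low dose, 14.0, 14.3 and 11.7 CPM at the medium dose and 19.5, 21.3 and 16.3 CPM at the high dose. Every decoction library lay above every vehicle library, and the Yijin-tang medium and high dose libraries did not overlap. With Yijin-tang it rose by 1.97 ± 0.22 (adjusted p = 2.83e-07), 2.69 ± 0.21 (3e-11) and 3.20 ± 0.21 (3.99e-14) on the log2 scale at the low, medium and high dose, as log2 fold change ± standard error. Without Yijin-tang low dose replicate 2, the highest of its group, and the other library that stands apart, the low dose value was 1.55 ± 0.18 (edgeR adjusted p = 3.16e-07). In Soshiho-tang CXCL1 had 4.60 and 3.95 CPM at the low dose, 9.52 and 9.04 CPM at the medium dose and 17.4 and 25.0 CPM at the high dose. Its log2 fold change over vehicle was 1.05 ± 0.25 (adjusted p = 0.101, not called) at the low dose, 2.17 ± 0.23 (5.94e-08) at the medium dose and 3.36 ± 0.22 (5.73e-15) at the high dose. The low dose was called without the 2 libraries that stand apart (1.05, adjusted p = 0.00158), without Yijin-tang low dose replicate 2 alone (0.00366) and with no low count filter (1.04, 0.0214). The 25.0 CPM belong to the library with leukocyte and red cell transcripts, and without it and Yijin-tang low dose replicate 2 the high dose value was 3.08 ± 0.19 (3.06e-16). The order of CXCL1 group means over the 25 groups began with Soshiho-tang high (21.2 ± 5.32 CPM, SD, n = 2) and Yijin-tang high (19.05 ± 2.51, n = 3), whose ranges overlapped, then Yijin-tang medium, Soshiho-tang medium, Yijin-tang low and Soshiho-tang low. The next group in that order, Zizyphi Semen high dose, had 2.50 CPM, and no library of it reached a decoction library.

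CXCL3 (ENSG00000163734, chromosome 4, 74036589 to 74038807, minus strand), also a CXCR2 ligand, had 1.05, 0.973 and 0.834 CPM in vehicle. In Yijin-tang it had 1.67, 2.35 and 1.78 CPM at the low dose, 2.701, 2.49 and 2.13 CPM at the medium dose and 2.79, 4.13 and 3.70 CPM at the high dose. All of these exceeded the vehicle range, and the log2 fold changes were 1.01 ± 0.21 (adjusted p = 0.00496), 1.36 ± 0.21 (9.02e-05) and 1.88 ± 0.20 (3.34e-08). Soshiho-tang libraries had 1.85 and 1.19 CPM at the low dose, 1.75 and 1.66 CPM at the medium dose and 2.38 and 3.55 CPM at the high dose. They too lay above vehicle, but only the high dose was called, at 1.64 ± 0.22 (5.84e-07), with 0.83 ± 0.23 (0.235) at the medium dose and 0.67 ± 0.24 (0.496) at the low dose. The medium dose was also called without the 2 libraries that stand apart (adjusted p = 0.0438), with the same log2 fold change of 0.83.

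CXCL2 (ENSG00000081041, chromosome 4, 74097035 to 74099293, minus strand), a close relative of both, was the weakest of the 3 in vehicle, at 0.544, 0.299 and 0.417 CPM or 8 to 16 counts per library. Yijin-tang gave 0.661, 1.22 and 0.764 CPM at the low dose, 1.02, 1.48 and 1.31 CPM at the medium dose and 1.43, 1.27 and 1.43 CPM at the high dose. Its log2 fold change was 1.04 ± 0.37 (adjusted p = 0.0587, not called), 1.56 ± 0.36 (0.0309) and 1.69 ± 0.36 (0.00724). The medium dose call was lost when any 1 of the 6 libraries compared was left out, at adjusted p-values of 0.0522 to 0.169, and the high dose call was lost without Vehicle replicate 3 (0.0503). In Soshiho-tang it had 0.826 and 0.614 CPM at the low dose, 1.18 and 1.09 CPM at the medium dose and 1.26 and 1.43 CPM at the high dose, all above the vehicle range. The high dose was called, at 1.66 ± 0.39 (0.00312), and lost without Soshiho-tang high dose replicate 3 (0.063), while the medium dose, at 1.42 ± 0.40 (0.229), was called without the 2 libraries that stand apart (0.0458). CXCL1, CXCL2 and CXCL3 are near-identical paralogs whose reads the counting can split, although the deposited counts held a fraction in 1 of 60 libraries for CXCL2 and for CXCL3 and in 0 for CXCL1. Summed to 1 feature, the 3 rose by 1.66, 2.31 and 2.80 on the log2 scale with Yijin-tang at the low, medium and high dose and by 0.92 (adjusted p = 0.0564, not called), 1.82 and 2.89 with Soshiho-tang.

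**Figure D2:**
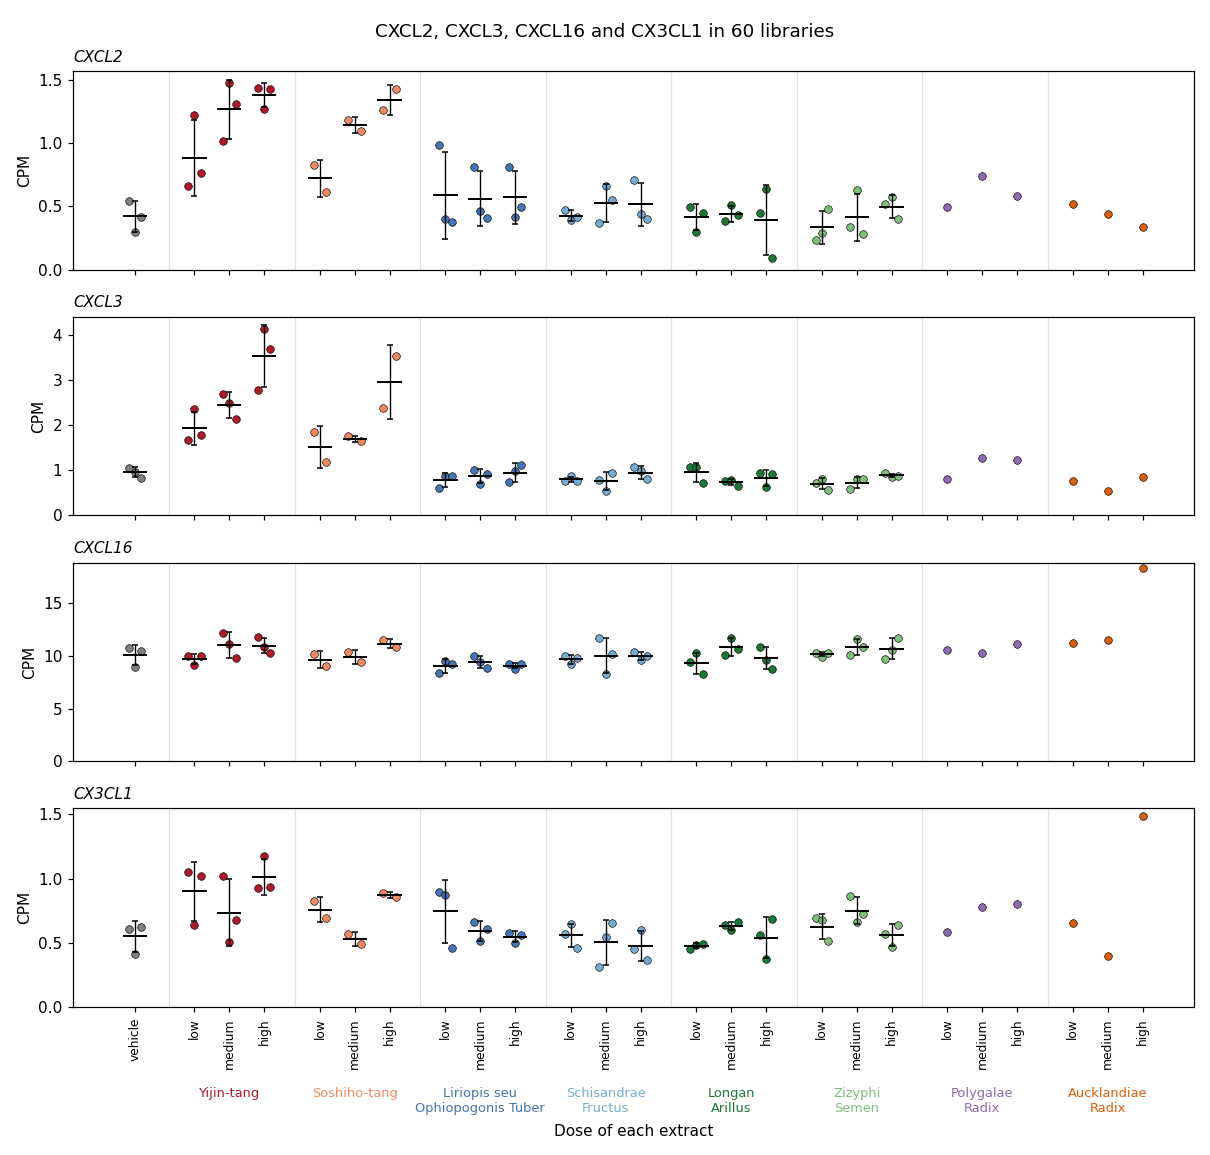
Levels of CXCL2, CXCL3, CXCL16 and CX3CL1 in CPM (y axes, each from 0) in every library, by extract and dose (x axis), drawn as in the plot of CXCL1, CXCL8 and CCL20. CXCL2 and CXCL3 lie above the vehicle range in all 6 decoction groups, whereas CXCL16 stays between 8.26 and 12.2 CPM in all libraries but Aucklandiae Radix high dose, at 18.3 CPM.

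CXCL8 (ENSG00000169429, chromosome 4, 73740506 to 73743716, plus strand), a potent neutrophil attractant, had the highest CPM per kilobase of the 7 in vehicle. Vehicle had 7.51, 8.68 and 8.65 CPM. Yijin-tang had 12.5, 19.4 and 10.6 CPM at the low dose, 16.5, 16.0 and 17.3 CPM at the medium dose and 19.03, 19.3 and 23.0 CPM at the high dose, all above vehicle. The log2 fold changes were 0.77 ± 0.13 (adjusted p = 0.000855), 1.00 ± 0.13 (4.94e-06) and 1.302 ± 0.13 (4.91e-09). Without Yijin-tang low dose replicate 2, at 19.4 CPM the highest of its group, and the other library that stands apart, the low dose value was 0.49 ± 0.11 (0.0115). Soshiho-tang had 9.51 and 8.51 CPM at the low dose, which overlapped vehicle, then 12.03 and 15.7 CPM at the medium and 25.2 and 28.4 CPM at the high dose, which did not. Its log2 fold changes were 0.12 ± 0.15 (0.959, not called), 0.75 ± 0.14 (0.00685) and 1.70 ± 0.14 (2.96e-12). The medium dose call was lost without Soshiho-tang medium dose replicate 3 (log2 fold change 0.54, adjusted p = 0.914) and without Vehicle replicate 1 (0.68, 0.0586). The high dose value without the 2 libraries was 1.61 ± 0.12 (2.87e-13).

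CCL20 (ENSG00000115009, chromosome 2, 227805739 to 227817564, plus strand), which recruits CCR6-bearing lymphocytes and dendritic cells, was close to absent in vehicle, with 3, 2 and 3 counts or 0.102, 0.0748 and 0.104 CPM. In Yijin-tang it had 0.622, 1.22 and 0.636 CPM at the low dose, 1.26, 1.48 and 1.94 CPM at the medium dose and 2.05, 2.21 and 2.05 CPM at the high dose. In Soshiho-tang it had 0.629 and 0.307 CPM at the low dose, 0.900 and 0.812 CPM at the medium dose and 2.19 and 2.69 CPM at the high dose. No decoction library overlapped vehicle or any of the other 42 extract libraries, which had at most 0.297 CPM. From summed counts, 146 in the Yijin-tang high dose against 8 in vehicle, the ratio was 22.3 with an exact 95% interval of 11.0 to 52.6, and for the Soshiho-tang high dose, 132 against 8 counts, it was 26.4 (13.0 to 62.5). These intervals cover counting error only. The low doses had ratios of 8.53 (4.04 to 20.7) for Yijin-tang and 4.95 (2.15 to 12.7) for Soshiho-tang. The fitted log2 fold changes rest on those few vehicle counts: 3.05 ± 0.47 (adjusted p = 0.000187), 3.97 ± 0.44 (1.61e-07) and 4.41 ± 0.43 (4.69e-09) for Yijin-tang, and 2.25 ± 0.55 (0.121, not called), 3.11 ± 0.50 (0.000499) and 4.63 ± 0.45 (3.43e-10) for Soshiho-tang. The Soshiho-tang low dose was called without the 2 libraries (0.0206), and the other CCL20 calls against vehicle were kept. CCL20 was tested only because decoction libraries passed the filter, with 14 of 54 libraries at or above its level and 0 of them vehicle. A difference from vehicle was thus built in, and these p-values cannot serve as separate support for it.

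At the high dose CXCL16 (ENSG00000161921, chromosome 17, 4733526 to 4739922, minus strand) had 11.8, 10.9 and 10.3 CPM with Yijin-tang and 11.5 and 10.8 CPM with Soshiho-tang, against 10.7, 8.98 and 10.5 CPM in vehicle. The Yijin-tang libraries overlapped vehicle, and both Soshiho-tang libraries lay just above it. Its log2 fold change was 0.13 (95% interval -0.06 to 0.32) for Yijin-tang and 0.15 (-0.06 to 0.36) for Soshiho-tang, at adjusted p-values of 0.753 and 0.512. CX3CL1 (ENSG00000006210, chromosome 16, 57372458 to 57385048, plus strand) had 0.930, 1.17 and 0.937 CPM with Yijin-tang at the high dose and 0.886 and 0.855 CPM with Soshiho-tang at the high dose, against 0.612, 0.412 and 0.626 CPM in vehicle. These high dose libraries all lay above vehicle, but the log2 fold changes of 0.87 ± 0.25 (adjusted p = 0.0897) and 0.65 ± 0.28 (0.197) were not called. Without the 2 libraries that stand apart CX3CL1 was called at the Yijin-tang high dose (0.87, adjusted p = 0.0259), and at no other dose.

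**Figure D3:**
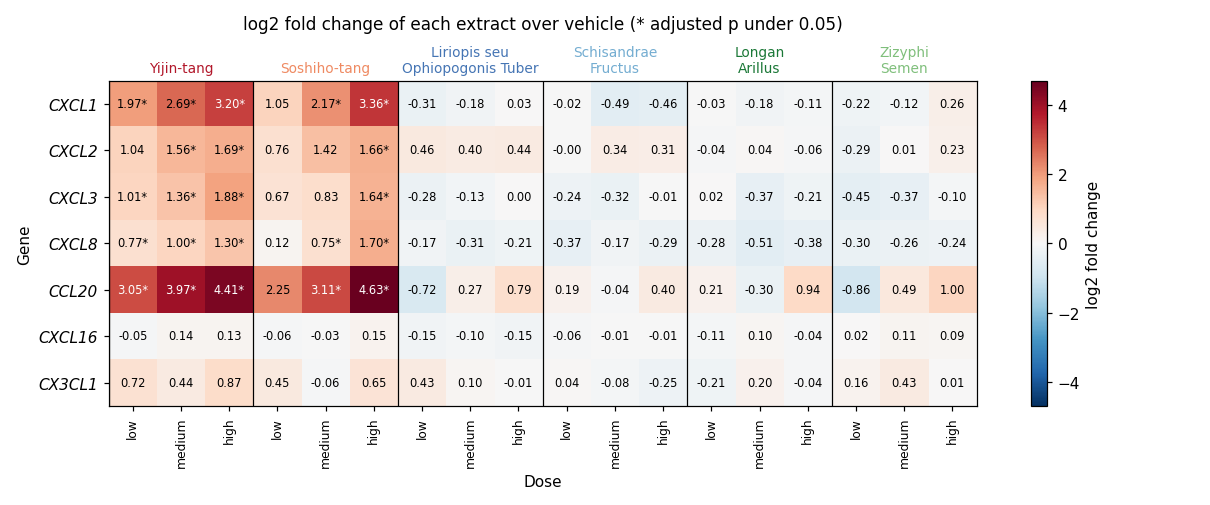
Heat map of log2 fold changes over vehicle for the 7 genes (rows) at the low, medium and high dose of 6 extracts (columns), from the edgeR fit; the colour scale runs from blue (lower than vehicle) to red (higher), and an asterisk marks an adjusted p under 0.05. The 22 asterisks all lie in the Yijin-tang and Soshiho-tang columns and in the 5 upper rows, with CCL20 reaching 4.41 and 4.63.

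Doses of 1 extract share a library set, so the comparison of high with low dose is free of the split between sets. Of the 7 genes, 4 were called higher for 500 over 20 µg/mL of Yijin-tang, as were 6.94% of all genes, and 4 in Soshiho-tang, against 3.26% of all genes. They were the same 4 in both: CXCL1, CXCL3, CXCL8 and CCL20. CCL20, 1 of these 4, passed the filter on low counts only through the decoction libraries. Leaving it out, CXCL1, CXCL3 and CXCL8 were called of the other 6 in each decoction. DESeq2 called these 4 for Soshiho-tang and 3 for Yijin-tang, where it gave CCL20 no adjusted p. With Yijin-tang CXCL1 was higher by 1.24 ± 0.19 (adjusted p = 0.000121), CXCL3 by 0.87 ± 0.19 (0.00504), CXCL8 by 0.53 ± 0.13 (0.00684) and CCL20 by 1.36 ± 0.33 (0.00738) on the log2 scale. With Soshiho-tang CXCL1 was higher by 2.31 ± 0.24 (2.26e-09), CXCL3 by 0.98 ± 0.24 (0.00629), CXCL8 by 1.58 ± 0.16 (8.58e-10) and CCL20 by 2.38 ± 0.42 (0.000115). Without the 2 libraries that stand apart all 4 Yijin-tang calls held, with CXCL1 at 1.65 ± 0.15 and CXCL8 at 0.82 ± 0.10, a value over 1.5 times the one with all libraries. In Soshiho-tang 3 of the 4 held without them and CXCL3 did not, at 0.65 ± 0.28 (0.16); its call was also lost without Soshiho-tang low dose replicate 3 (0.69, 0.249). CXCL2 was not called in either decoction, at 0.66 ± 0.33 (0.145) and 0.90 ± 0.41 (0.232). When only the 2 Yijin-tang dose groups entered the fit, none of the 4 was called (adjusted p = 0.745 for each), with nearly the same log2 differences, 1.22 for CXCL1 and 1.35 for CCL20. That fit takes the spread from those 6 libraries alone, among them Yijin-tang low dose replicate 2.

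The slope with dose differed between the decoctions for 2 genes, in a test added after the values were seen. The high minus low dose difference of Yijin-tang was smaller than that of Soshiho-tang by 1.08 ± 0.30 for CXCL1 (a difference of -1.08, adjusted p = 0.0349) and by 1.04 ± 0.20 for CXCL8 (-1.04, adjusted p = 0.00135), in the same edgeR fit, where 4.38% of all genes were called. For CXCL1 the call was lost without the 2 libraries (-0.38, adjusted p = 0.607), without Yijin-tang low dose replicate 2 (-0.67, 0.128) and without Soshiho-tang high dose replicate 3 (-0.80, 0.277), while CXCL8 kept it without both (-0.67, 0.024). Against the mean slope of the 4 herbs with replicates, Soshiho-tang was steeper by 2.24 ± 0.27 for CXCL1 (1.71e-07) and 1.57 ± 0.17 for CXCL8 (1.79e-08), where 3.03% of genes were called. Yijin-tang was steeper than the herbs by 1.16 ± 0.23 for CXCL1 (0.0209) and 0.53 ± 0.14 for CXCL8 (0.046), with 2.66% of genes called. Each slope lies within 1 library set, but decoctions and herbs differ in set and solvent, which cannot be told apart from the extracts. CXCL3 and CCL20 were not called in any of these 3 differences, CXCL3 coming closest at 0.71 ± 0.22 (0.0554) for Yijin-tang minus the herbs.

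**Figure D4:**
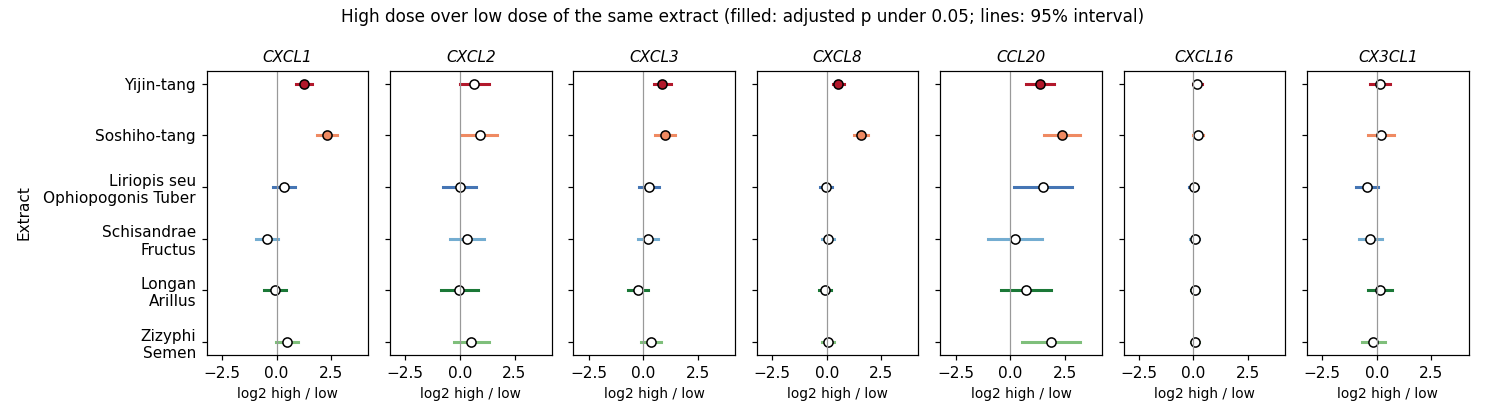
Log2 fold change of the high over the low dose (x axes) for each of the 7 genes (panels) in 6 extracts (rows), with 95% intervals; filled points have an adjusted p under 0.05. The filled points are CXCL1, CXCL3, CXCL8 and CCL20 in Yijin-tang and Soshiho-tang, and no herb has one.

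Compared directly at equal dose, Yijin-tang and Soshiho-tang did not differ past the threshold for any of the 7 genes at any dose, where 3.72, 0.0178 and 0.0355% of all genes were called for the high, medium and low dose. Of the 21 comparisons 6 had an unadjusted p under 0.05 and DESeq2 called 2, CXCL1 and CXCL8 at the low dose. There Yijin-tang was above Soshiho-tang by 0.92 ± 0.23 for CXCL1 and by 0.64 ± 0.15 for CXCL8, both at an edgeR adjusted p of 0.0596. At the high dose the difference was -0.16 for CXCL1 (95% interval -0.54 to 0.22), 0.24 for CXCL3 (-0.16 to 0.64), -0.22 for CCL20 (-0.87 to 0.43) and -0.40 for CXCL8 (-0.66 to -0.13, adjusted p = 0.102). Leaving out Yijin-tang low dose replicate 1 gave 2 calls in place of 0, CXCL1 and CXCL8 at the low dose. Leaving out replicate 2 gave 1, CXCL8 at the high dose (-0.40, adjusted p = 0.00315), and leaving out replicate 3 gave all 3 of these. Without both libraries that stand apart there was no call, with CXCL8 at -0.31 for the high dose (0.146) and CXCL1 at 0.50 for the low dose.

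No chemokine passed the test in the 4 single herbs with replicates. None of the 84 comparisons of the 7 genes over 12 herb groups with vehicle was called by edgeR, 7 had an unadjusted p under 0.05, and DESeq2 called 0. All genes were called, in either direction, at 0.491, 0.373 and 0.45% for the low, medium and high dose of Liriopis seu Ophiopogonis Tuber, 0.16, 0.474 and 0.693% for Schisandrae Fructus, 0.107, 0.0118 and 0.0829% for Longan Arillus and 0.0355, 0.0296 and 0.16% for Zizyphi Semen. CXCL1 had 0.989 to 3.16 CPM in the 36 herb libraries, with a median of 1.84, and its log2 fold changes ran from -0.49 to 0.26. The 7 comparisons with an unadjusted p under 0.05 were all of CXCL8, and its log2 fold change was below 0 in all 12 groups, from -0.51 to -0.17. CXCL8 had 5.50 to 7.95 CPM in these 36 libraries, and in 9 of the 12 groups every library lay below the 7.51 to 8.68 CPM of vehicle. The share of all genes that lay wholly outside their vehicle range was not taken. The 12 comparisons share the same 3 vehicle libraries, which form a library set of their own, and the lowest adjusted p was 0.393. Without the 2 decoction libraries that stand apart, CXCL8 was called lower at the low dose of Schisandrae Fructus (-0.37, adjusted p = 0.0362) and the medium dose of Longan Arillus (-0.50, 0.0163). CCL20 lay above the vehicle range in every library at the high dose of all 4 herbs and overlapped it in the other 8 groups. The high dose means were 0.124 to 0.193 CPM, from 10 to 14 summed counts per group, against 0.0937 CPM in vehicle. Its log2 fold changes ran from -0.86 to 1.00, with 4 of 12 below 0 and a lowest edgeR adjusted p of 0.819. It had 0 counts in Liriopis seu Ophiopogonis Tuber low dose replicate 1 and in Zizyphi Semen low dose replicate 2, which allows up to 0.128 and 0.144 CPM, the level of 3 counts.

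Within the herbs no chemokine differed between high and low dose (0 of 28 called by edgeR and by DESeq2, 2 with an unadjusted p under 0.05), where 0, 0.189, 0.0178 and 0.0533% of all genes were called in Liriopis seu Ophiopogonis Tuber, in Schisandrae Fructus, in Longan Arillus and in Zizyphi Semen. Those 2 were CCL20 in Zizyphi Semen (log2 difference 1.86, 95% interval 0.54 to 3.18) and in Liriopis seu Ophiopogonis Tuber (1.51, 0.16 to 2.85), both at an adjusted p of 1, from 0 to 7 counts per library. Liriopis seu Ophiopogonis Tuber against Schisandrae Fructus, with 0.0947, 0 and 0% of all genes called at the high, medium and low dose, and Longan Arillus against Zizyphi Semen, with 0.0237, 0 and 0%, gave 0 calls in 42 comparisons, none with an unadjusted p under 0.05 and 0 with DESeq2.

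Aucklandiae Radix at the high dose, a single library, showed another pattern. CXCL8, CXCL16 and CX3CL1 were above the vehicle range, as was CCL20 from 7 counts, while CXCL1, CXCL2 and CXCL3 were not. CXCL16 also lay above that range at the low and medium dose of this extract, at 11.3 and 11.5 CPM. In the Polygalae Radix high dose library CXCL1, CXCL2, CXCL3, CCL20, CXCL16 and CX3CL1 lay above it and CXCL8 within it. Over the 6 groups with 1 library CCL20 lay above it in 5, and CXCL16 and CX3CL1 in 4 each. The share of all genes above their vehicle range was not taken. CXCL8 had 21.4 CPM there (505 counts, exact Poisson 95% interval 19.6 to 23.4), against 7.22 and 7.12 CPM at its low and medium dose and 7.51 to 8.68 CPM in vehicle. CXCL16 had 18.3 CPM (16.6 to 20.2), the highest of the 60 libraries, against 8.98 to 10.7 CPM in vehicle. CX3CL1 had 1.49 CPM (1.03 to 2.07), also the highest of the 60, against 0.412 to 0.626 CPM in vehicle. CXCL1 had 1.19 CPM, below the vehicle range of 1.49 to 2.38 CPM. CCL20 had 0.297 CPM from 7 counts, against 0.0748 to 0.104 CPM in vehicle. The log2 ratio to the vehicle mean, with 0.5 CPM added to both, was 1.32 for CXCL8, 0.92 for CX3CL1, 0.84 for CXCL16, 0.43 for CCL20, -0.11 for CXCL3, -0.13 for CXCL2 and -0.60 for CXCL1. The added 0.5 CPM exceeds the vehicle level of CCL20 and pulls its ratio towards 0. CXCL8 alone reached 2-fold, where 11% of all genes were at least 2-fold from vehicle in either direction, so 1 of the 7 is near that share. With 0.1 CPM added 3 of the 7 did, CXCL8, CX3CL1 and CCL20, and the share of all genes was not taken there. At the low and medium dose of Aucklandiae Radix none reached 2-fold (0.255 and 0.326% of all genes), and none did at the low, medium or high dose of Polygalae Radix (0.278, 0.42 and 0.995%). The largest absolute log2 ratio of Polygalae Radix was that of CXCL8 at the medium dose, which lay below vehicle at 5.10 CPM (-0.65). These differences have no replicate check. In the Aucklandiae Radix high dose library the 5 endothelial markers summed to 9.21 CPM, against at most 2.47 CPM in the other 59, and the 6 fibroblast markers to 4.12 CPM, against at most 3.29 CPM. The endothelial sum was PECAM1 at 8.83 CPM and VWF at 0.382 CPM, with CDH5, KDR and ERG at 0 counts, and of the fibroblast markers COL1A2, COL3A1 and DCN were at 0 counts. The part of these transcripts in the chemokine levels was not tested.

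**Figure D5:**
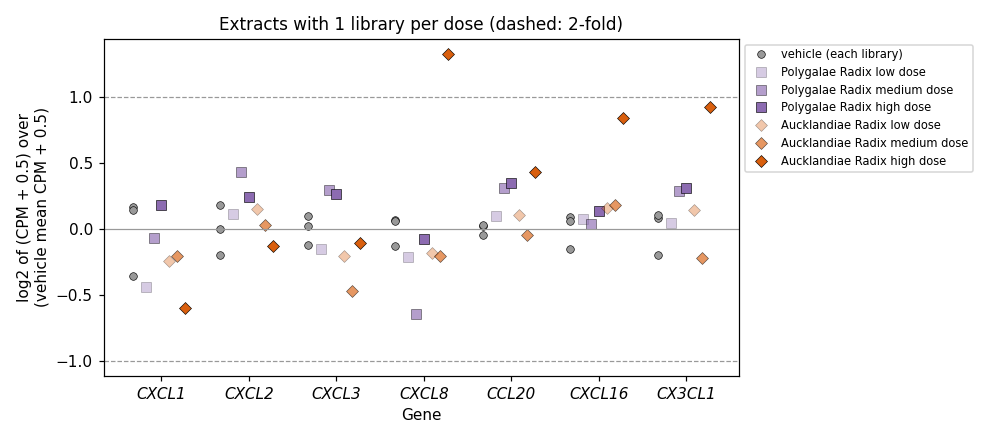
Log2 ratio of CPM to the vehicle mean, after adding 0.5 CPM to both (y axis), for the 7 genes (x axis) in the 3 vehicle libraries (grey circles) and the single libraries of Polygalae Radix (squares) and Aucklandiae Radix (diamonds), with darker colour for higher doses; dashed lines mark 2-fold. Aucklandiae Radix high dose stands at 1.32 for CXCL8, 0.92 for CX3CL1, 0.84 for CXCL16 and -0.60 for CXCL1.

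Of 28 other chemokine genes 22 stayed under 1 CPM in every library. The filter on low counts, which uses another limit, kept 6 of the 28, and these are not the same 6 that reached 1 CPM. CXCL5 and CXCL6, which like CXCL1 attract neutrophils through CXCR2, rose at the high dose of both decoctions. They were the 2 of 6 called in each, where 0.557% of all genes rose with Yijin-tang and 4.17% with Soshiho-tang. The mean vehicle level of both lay under the 0.401 CPM of the filter. As with CCL20, a difference may therefore be built into their being tested. CXCL6 averaged 1.57 ± 0.34 CPM with Yijin-tang (SD, n = 3) and 1.11 ± 0.18 CPM with Soshiho-tang (n = 2), against 0.215 ± 0.106 CPM in vehicle (n = 3), log2 fold changes of 2.85 ± 0.38 (adjusted p = 3.51e-06) and 2.36 ± 0.41 (8.22e-05). CXCL5 had 0.388 to 0.564 CPM with Yijin-tang and 0.233 and 1.05 CPM with Soshiho-tang, against 0 to 0.136 CPM in vehicle. Its log2 fold changes of 3.26 ± 0.81 (0.0416) and 3.70 ± 0.82 (0.00308) rest on few counts, and the Soshiho-tang call was lost without the 2 libraries that stand apart (2.20, 0.25). Of the 9 receptors, 7 never reached 1 CPM and the 2 tested, CXCR6 and the scavenger ACKR4, were not called.

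Among 21 subunits, inhibitors and close targets of NF-kB, 1 rose at the Yijin-tang high dose and 7 at the Soshiho-tang high dose, against 0.557 and 4.17% of all genes, with list medians of 0.03 and 0.23 on the log2 scale. BIRC3, an inhibitor of apoptosis that NF-kB induces, rose in both, to 8.33 ± 0.54 CPM with Yijin-tang (n = 3) and 9.70 ± 1.12 CPM with Soshiho-tang (n = 2), against 4.35 ± 1.01 CPM in vehicle (SD, n = 3), log2 fold changes of 0.94 ± 0.13 (adjusted p = 9.37e-06) and 1.16 ± 0.14 (6.49e-08). With Soshiho-tang TNFAIP3, an inhibitor of the pathway, rose by 1.14 ± 0.23 (0.000622), BCL3 by 0.62 ± 0.14 (0.00163) and RELB by 0.59 ± 0.12 (0.000841). Without the 2 libraries 3 and 6 of the 21 rose with Yijin-tang and Soshiho-tang, but the calls over all genes went up too, to 1240 and 2152 of 17330, with 3.96 and 6.73% of genes called higher, and the Soshiho-tang value of TNFAIP3 was 0.64 ± 0.25 (0.0831, not called). Of 8 factors that control mRNA decay, ZC3H12A, an RNase that cleaves inflammatory mRNAs, rose by 0.59 ± 0.09 (4.32e-05) with Yijin-tang and 0.81 ± 0.10 (6.49e-08) with Soshiho-tang, and ZFP36 by 0.38 ± 0.12 (0.0291) with Soshiho-tang, a call lost without the 2 libraries (0.0908). Of 12 AP-1 and related factors, EGR1 fell by 0.51 (0.0439) and FOS by 0.46 (0.0218) on the log2 scale with Yijin-tang, where 83 of 16890 genes fell. With Soshiho-tang 4 of the 12 rose, FOSB (0.96), JUNB (0.56), FOSL1 (0.54) and MAFF (0.40), against 4.17% of all genes. In the fit without the 2 libraries 5 of the 12 fell with Yijin-tang and 6 rose with Soshiho-tang, FOSB by 0.55 (0.0282). In that fit 1240 of 17330 genes were called in either direction with Yijin-tang, 3.96% of all genes being called higher, and 6.73% were called higher with Soshiho-tang.

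A list of 17 genes upstream of these pathways encodes cytokines, cytokine receptors, pattern receptors and signalling adaptors and kinases. Of the 17, 0 were called at the Yijin-tang high dose, where 1.05% of all genes were called in either direction. At the Soshiho-tang high dose 3 rose and 1 fell, where 4.17% of all genes rose and 635 of 16890 fell. In the fit without the 2 libraries 0 rose and 2 fell with Yijin-tang, IL1RN (-0.23, adjusted p = 0.0161) and IL17RC (-0.34, 0.00483), and 4 rose and 2 fell with Soshiho-tang. In that fit 1240 and 2152 of 17330 genes were called in either direction, with 3.96 and 6.73% of all genes called higher. With all libraries, the TNF receptor gene TNFRSF1B rose at the Soshiho-tang high dose by 2.67 ± 0.49 (adjusted p = 0.000198), IL1RAP by 0.51 ± 0.12 (0.00492) and TNFRSF1A by 0.31 ± 0.07 (0.00238). IL17RC fell there by 0.40 on the log2 scale (0.0228), a call lost without the 2 libraries (-0.32, 0.0833). TNFRSF1B, a gene that leukocytes also express, was not called without the 2 libraries (1.26 ± 0.68, 0.251). The 4 tested sheddase genes, among them ADAM10 and ADAM17, were not called in either, though ADAM10 was called at the Yijin-tang high dose without the 2 libraries (0.14, adjusted p = 0.0322). In the 4 herbs with replicates at the high dose, 1 gene of all these lists was called, ZFP36L2 with Zizyphi Semen (0.26 ± 0.06, 0.0378). It was 1 of 8 mRNA decay factors, where 0.16% of all genes were called in either direction. At the high dose of Liriopis seu Ophiopogonis Tuber, Schisandrae Fructus and Longan Arillus 0.45, 0.693 and 0.0829% of all genes were called. In the Aucklandiae Radix high dose library 6 of 21 NF-kB genes and 6 of 12 AP-1 genes were at least 2-fold above vehicle, as were 916 of all 16890 genes. BIRC3 stood at 32.3 CPM there against a vehicle mean of 4.35 CPM, and ATF3 at 29.2 against 3.89 CPM. CXCL5 had 0 counts and CXCL6 0.0425 CPM in the same library.

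Over the means of the 19 groups with replicates, the 5 genes that rose followed each other closely, with Pearson's r of 0.946 to 0.990 over their 10 pairs of log2(CPM + 0.5). These 5 were taken because they were called higher in the decoctions in these same libraries, so a high r among them was built in. The points share the libraries, and the decoction groups lie far from all others, so r describes that split as well. With all 25 groups the range was 0.692 to 0.968, the lowest for CXCL2 with CXCL8. CXCL16 had r of 0.410 to 0.540 with those 5 genes and CX3CL1 0.631 to 0.700. Outside the 7, the protein-coding genes most like CXCL1 were PI3 (r = 0.987), C3 (0.984) and IL32 (0.974), and the same 3 were nearest to CXCL3, at 0.968, 0.961 and 0.961. Over 25 groups IL32 fell to 0.675 with CXCL1 and 0.669 with CXCL3, while PI3 and C3 stayed at 0.908 or above. C3 and IL32 averaged 0.441 and 0.761 CPM. CXCL2, CCL20 and CX3CL1, with means of 0.675, 0.514 and 0.651 CPM, were too low to be searched. For CXCL8 the nearest genes were PI3 (0.970), POU2F2 (0.965) and BIRC3 (0.964), which over 25 groups had 0.845, 0.812 and 0.788. For CXCL16, which hardly varied, the nearest were PSMF1 (0.816), TRIP13 (0.791) and SERPINB8 (0.791), and over 25 groups TRIP13 turned to -0.463.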

How the data were processed

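Per the labels' protocols, RNA was made into directional mRNA libraries and sequenced as paired ends of 100 bp. The values the authors deposited are unnormalized expected counts, 1 per gene and library, for 60 libraries. RSEM 1.3.3, STAR 2.7.3a, Trim Galore 0.6.5 and FastQC 0.11.9 are named, with build GRCh38, per the submitters' processing notes; the annotation release and strand setting are not given in the sources used here. Before testing these were made integers by rounding. Low genes were removed with filterByExpr (minimum count 10), and the rest were scaled by TMM and tested with edgeR 4.0.16 (quasi-likelihood, R 4.3.3) in 1 fit of the 54 libraries of 19 groups with replicates, with Benjamini-Hochberg adjustment over 16890 genes and a threshold of 0.05. Standard errors are the log2 fold change divided by the square root of F. DESeq2 1.42.0 was an alternative. The scripts were tested on simulated data. Replicate numbers did not pair libraries: 0 of 26 comparisons with 3 pairs had every correlation over 0.1.

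The members and gene lists were chosen with earlier results of these data known. Named list genes are those called with the largest changes, at most 4 per list and comparison, and genes most like a member are the 3 protein-coding genes with the highest r. The wortmannin control was not analysed here.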

Additional observations from a re-analysis of the deposited data

Results flagged for a closer look

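The change with dose differed between extracts for CXCL1 and CXCL8, by a test of the difference itself (edgeR quasi-likelihood test, Benjamini-Hochberg adjustment over 16890 genes), chosen after seeing the data. The Yijin-tang minus Soshiho-tang difference in log2 change between high and low dose was -1.08 for CXCL1 (adjusted p = 0.0349) and -1.04 for CXCL8 (0.00135). Yijin-tang minus the mean of the 4 herbs gave 1.16 for CXCL1 (0.0209) and 0.53 for CXCL8 (0.046). Soshiho-tang minus the mean of the 4 herbs gave 2.24 for CXCL1 (1.71e-07) and 1.57 for CXCL8 (1.79e-08). The differences from the herbs cross library sets and solvents. Without the 2 libraries that stand apart, the CXCL1 difference between the decoctions was -0.38 (0.607, no longer called), and the other 5 were called. The Yijin-tang minus herbs calls were lost for CXCL1 without Yijin-tang high dose replicate 1 (1.14, 0.0717) or replicate 2 (1.07, 0.108). The CXCL8 call for Yijin-tang minus herbs was lost without Yijin-tang high dose replicate 1 (0.0847), 2 (0.137) or 3 (0.11), without Soshiho-tang high dose replicate 3 (0.0501) and without either Soshiho-tang low dose library (0.0539 each). The CXCL1 call between the decoctions was lost without Yijin-tang high dose replicate 3 (-0.98, 0.0724), Soshiho-tang low dose replicate 2 (-1.19, 0.0916) or replicate 3 (-0.97, 0.16), and without either library that stands apart.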

How the results depend on the processing

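Of 529 alternative values of single genes 483 kept their direction and side of the threshold, and no called value reversed. These values cover CXCL1, CXCL2, CXCL3, CXCL8 and CCL20 in both decoctions, and the differences in dose change for CXCL1 and CXCL8. Values of CXCL16 and CX3CL1 and of the herbs against vehicle were not among them. CX3CL1 at the Yijin-tang high dose and CXCL8 with Schisandrae Fructus and Longan Arillus gained calls under some settings. With the fit limited to the compared groups, 9 calls against vehicle were made for Yijin-tang in place of 14, and 0 in place of 4 between its high and low dose. With CXCL1, CXCL2 and CXCL3 summed to 1 feature, Yijin-tang had 9 calls among 15 rather than 21 tests, with the sum called at all 3 doses. DESeq2 gave 10 calls for Yijin-tang against vehicle, with no adjusted p for 4 of the 14 that edgeR called. Without the 2 libraries that stand apart, a setting planned with earlier results known, Schisandrae Fructus and Longan Arillus had 1 call each in place of 0. Between Yijin-tang and Soshiho-tang DESeq2 gave 2 calls and no low count filter gave 2, in place of 0. With a pseudocount of 0.1 CPM Aucklandiae Radix had 3 genes at 2-fold in place of 1, and the share of all genes was not taken at that setting. Leaving out 1 library gave 12 to 15 calls for Yijin-tang against vehicle, 7 to 8 for Soshiho-tang, 3 to 4 for Soshiho-tang high against low dose and 0 to 3 between the decoctions. The cause of these changes was not tested.

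With the replicate block the counts were 14 for Yijin-tang and 8 for Soshiho-tang against vehicle and 4 for the high against the low dose of each, as without it. CCL20, at 2 or 3 counts per vehicle library, and CXCL2, at 8 to 16, are the members whose values depth limits most.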
